A study of Drosophila melanogaster with 34 samples.

Results

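The achaete-scute interval is the stretch of the X chromosome of Drosophila melanogaster from 240000 to 330000 on release 5 of the BDGP genome, a length of 90 kb. It was chosen by position, for the genes of the achaete-scute complex, and every peak that overlapped it by 1 bp or more in the 18 deposited lists was taken. There were 14 such peaks, of 8960 on X and 48602 in all lists. Of the 18 lists, 7 had a peak in the interval and 11 had none. Over all lists, 65.1% of the other 90 kb windows of X held a peak of a given list.

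The achaete-scute complex holds the proneural genes achaete (ac), scute (sc), lethal of scute (l(1)sc) and asense (ase). Each codes for a transcription factor of the basic helix-loop-helix class. The products of ac, sc and l(1)sc give groups of ectodermal cells the ability to become neural precursors, from which lateral inhibition through Notch selects single cells, and ase acts in the precursors themselves. The protein of sc also serves as an X-linked signal element in sex determination of the early embryo. The complex is known for long intergenic stretches of enhancers, which drive its genes in successive cell groups.

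A gene table of release 6 listed all 4 genes on X in the order y, ac, sc, l(1)sc, Pgcl, ase, Cyp4g1, where y codes for the pigment protein Yellow and Cyp4g1 for a cytochrome P450. On that release the 4 genes together span more bases than the interval is long. That the interval holds all of them on release 5 was therefore not borne out by the gene table. No annotation and no sequence of release 5 was used here, so no peak below is assigned to a gene and no sequence is shown.

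The lists came from chromatin immunoprecipitation with sequencing (ChIP-seq) of 8 proteins, made from 18 ChIP samples beside 16 inputs. The deacetylases, of a family named for taking acetyl groups off histones, were HDAC1, HDAC3, HDAC4a, HDAC6 and HDAC11. Each had 2 lists from 0 to 12 h embryos, numbered 1 and 2 here as their titles run. CTCF, an insulator protein, was mapped in S2 cells, a line grown from embryos, in lists named CTCF 200 and CTCF 500 after their titles. Caudal, a homeodomain factor of the posterior body, had 1 list for 0 to 4 h embryos, 1 for 4 to 8 h embryos, 1 for third-instar (L3) larvae and 1 for 21 d adult females, and EcR, the ecdysone receptor, 1 list from each of the white prepupal (WPP) samples labelled 10 to 11 h and 30 to 33 h. The HDAC lists and the Caudal list of 0 to 4 h came from flies labelled y; bw cn sp, with antibodies against the protein itself. The later Caudal lists and the EcR lists came from y w, VK33 flies carrying cad-GFP or EcR-GFP, with an antibody against GFP. Their inputs were labelled y; bw cn sp. However, input titles at 0 to 4 h, at 4 to 8 h and in adult females carry the code that later Caudal ChIP titles pair with cad-GFP. Which flies these inputs came from is therefore not settled by the labels. Whole animals were crushed, so binding in few cells and weak binding in many cannot be told apart. Each list pooled 1 to 3 libraries and gave no read counts, so it is a single observation of unknown depth.

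**Figure D1:**
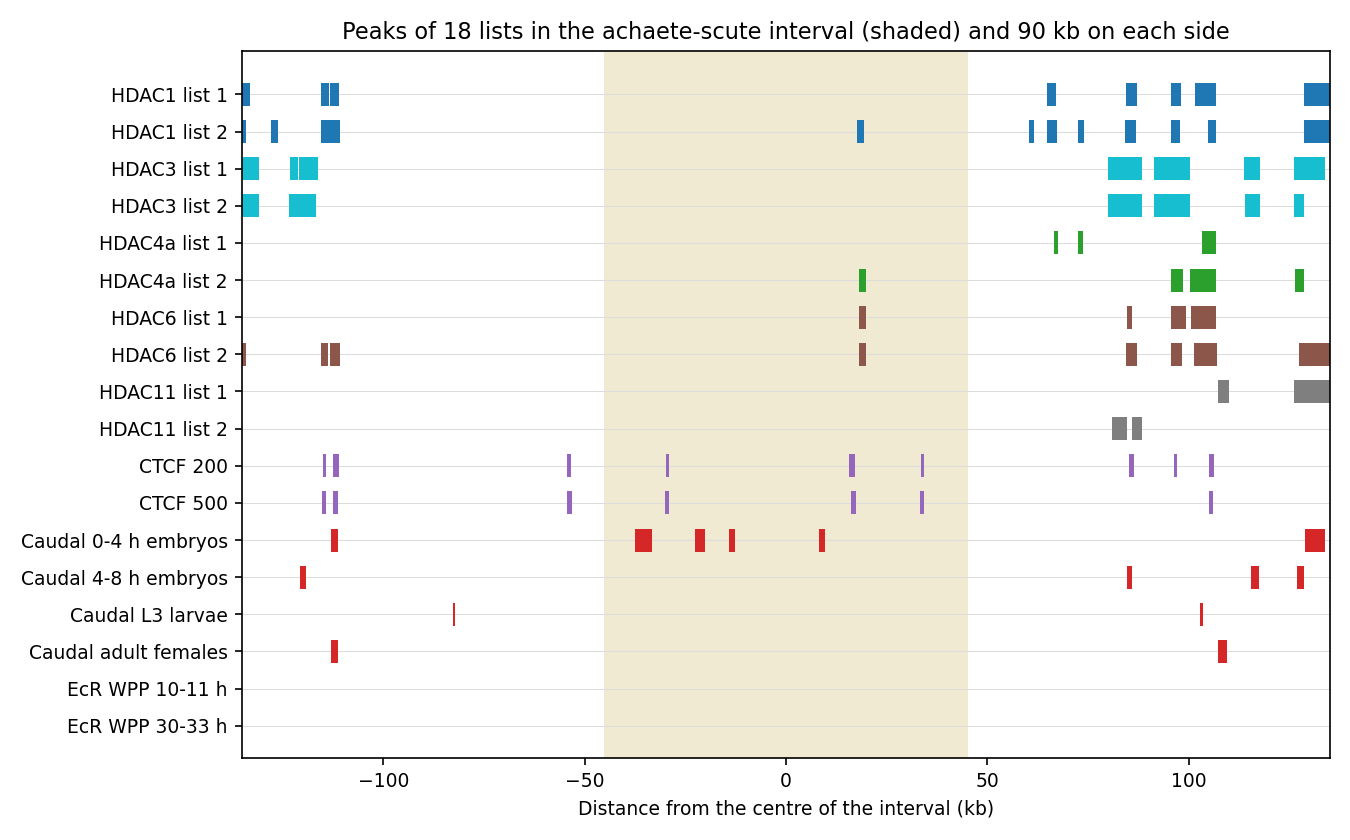
Peaks of the 18 lists (rows) by distance from the centre of the interval in kb; the shaded band is the 90 kb interval, bars are peaks, and peaks under 0.6 kb are drawn 0.6 kb wide. In the band, 4 peaks of Caudal in 0 to 4 h embryos lie apart from 3 sites shared by the CTCF lists and from 1 site shared by 4 HDAC lists.

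Caudal in embryos of 0 to 4 h gave most of the bound bases of the interval, 9445 bp of the 15587 bp under any list. Its 4 peaks lay at X 247567 to 251667, 262489 to 264946, 270825 to 272229 and 293095 to 294575, with widths of 4101 bp, 2458 bp, 1405 bp and 1481 bp. The first 3 fell within one stretch on the left of the interval, and the fourth followed after 20865 bp, from 272230 to 293094, without a peak in any list. The peak at 247567 was the widest of the 14 and ranked 243 of the 2207 peaks of its list by width. The next ranked 704, while the peaks at 293095 and 270825 ranked 1440 and 1522.

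In number, 4 Caudal peaks in the interval stood against a mean of 1.02 per 90 kb over the rest of X, a density 3.92-fold higher. By length, the peaks covered 10.5% of the interval and 2.15% of the rest of X. The interval held 1.56% of the 257 X peaks of this list (95% Wilson interval 0.607% to 3.93%, counting error only) in 0.402% of the length of X. Among the 247 other windows, 50.2% had a peak of this list and 14.2% reached 2-fold of its mean over X, and 19 windows (7.69%) had 4 peaks or more. The highest number in a window was 8. The interval is thus among the windows richest in early Caudal peaks, but not alone in that.

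None of the 4 Caudal peaks was overlapped by a peak of any other list. On the rest of X, the same held for 52 of 253 peaks of this list (20.6%, Wilson interval 16.0% to 26.0%), against 4 of 4 here (51.0% to 100%). Without an HDAC peak were 4 of 4 in the interval and 65 of 253 (25.7%) on the rest of X. Intervals of this kind treat peaks as independent, and the comparison was chosen after the map had been seen. The comparison is also not separate from the low number of HDAC peaks in the interval, given below.

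Later Caudal lists had no peak in the interval. The mean over the rest of X was 2.87 peaks per 90 kb at 4 to 8 h, 0.319 in L3 larvae and 2.40 in adult females, and 74.1%, 25.9% and 73.3% of the other windows had a peak in these lists. The absence in L3 larvae is therefore the usual outcome for a window of this length in so short a list, whereas the lists at 4 to 8 h and in adult females lacked a peak in 25.9% and 26.7% of the other windows. At 4 to 8 h the stretch without a peak ran for 203843 bp, from the end of a peak at 165783 to the start of the next at 369627, and 16 of the 711 gaps between neighbouring peaks on X were as wide. In adult females it ran for 218394 bp, from 173796 to 392191, with 18 of 593 gaps as wide. Wide gaps take up more of X than their number shows, so the shares of empty windows are the fitter background. By the labels, stage, antibody, fly line and the tagged transgene changed together between the first Caudal list and the others and cannot be told apart.

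**Figure D2:**
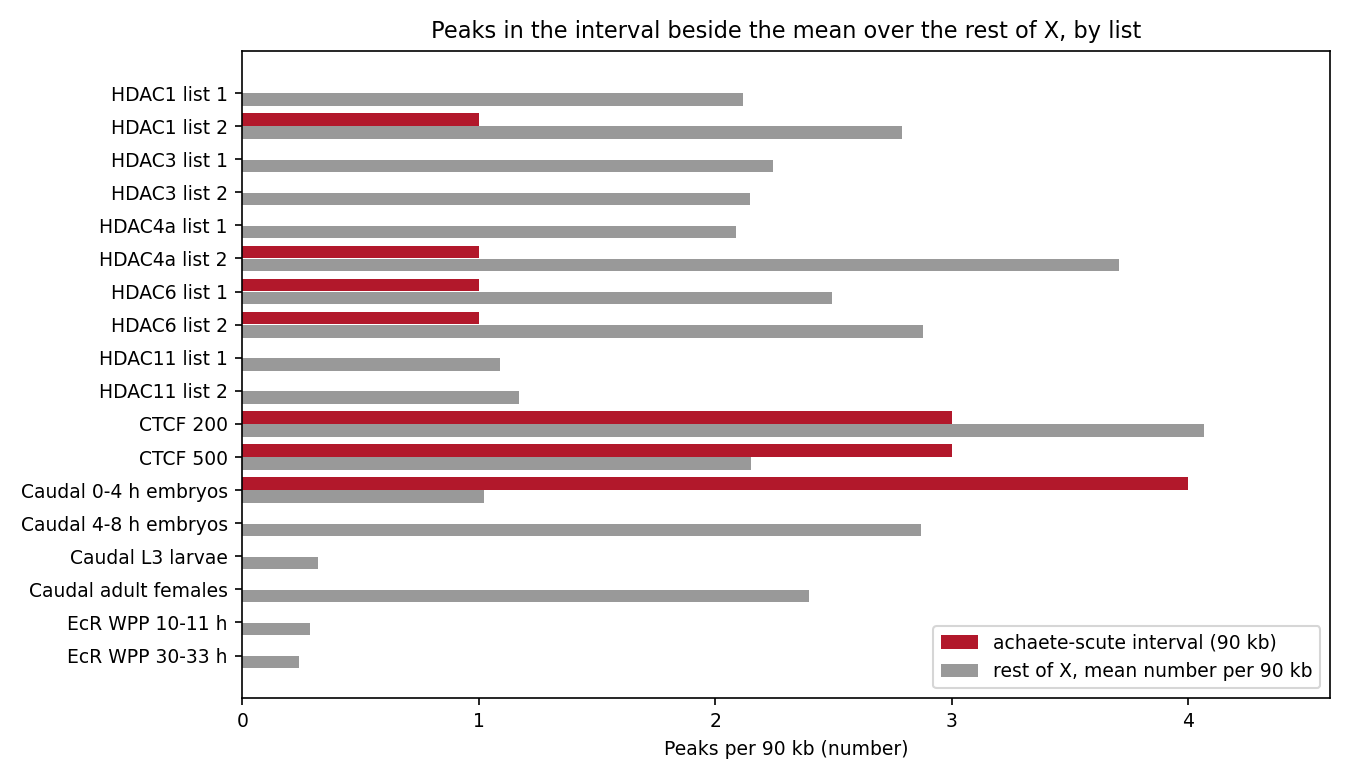
Number of peaks per 90 kb (horizontal axis) for each of the 18 lists, in the achaete-scute interval (upper bar) and as the mean over the rest of X (lower bar). Caudal in 0 to 4 h embryos has 4 peaks against a mean of 1.02, CTCF 500 has 3 against 2.15, and every other list lies under its mean.

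CTCF marked 3 sites, and both S2 lists had a peak at each. At the left site the CTCF 200 peak ran from 255210 to 256042 and the CTCF 500 peak from 254892 to 255893, with 684 bp in common. The middle site had peaks at 300646 to 302222 and 301081 to 302332, with 1142 bp in common. At the right site the peaks ran from 318398 to 319201 and from 318295 to 319370, and the first lay wholly within the second. CTCF sites are thus spaced across the interval, on both sides of the Caudal peaks at 262489, 270825 and 293095, and no CTCF peak touched a Caudal peak.

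The density of CTCF was near that of X. CTCF 200 had 3 peaks against a mean of 4.07 per 90 kb over the rest of X, with 95.5% of the other windows holding a peak. CTCF 500 had 3 against 2.15, with 84.6% of windows holding a peak and 38.9% holding 3 or more. Agreement of the lists was 3 of 3 for either list. On the rest of X, 92.7% of the CTCF 500 peaks overlapped CTCF 200, and 49.1% of the CTCF 200 peaks overlapped CTCF 500. None of the 6 CTCF peaks was overlapped by an HDAC peak, while on the rest of X 24.5% of the CTCF 200 peaks (Wilson interval 21.9% to 27.2%) and 28.1% of the CTCF 500 peaks (24.4% to 32.0%) were free of HDAC peaks. With 3 sites, the Wilson interval in the achaete-scute interval itself runs from 43.9% to 100%. HDAC peaks covered 2.48% of the achaete-scute interval and 29.1% of the rest of X, so this lack of overlap is not separate from their scarcity.

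Histone deacetylases met at a single site. Peaks of HDAC1 list 2 (302630 to 304280), HDAC4a list 2 (303151 to 304832), HDAC6 list 1 (303202 to 304723) and HDAC6 list 2 (303068 to 304857) overlapped one another, and 1079 bp, from 303202 to 304280, lay under all 4. The peaks were 1522 bp to 1790 bp wide and stood in the lower ranks of their lists by width, at 3742 of 4123, 2525 of 4034, 2095 of 2989 and 2973 of 3486 in the order named. HDAC6 was the only deacetylase with a peak in both of its lists. Over X, however, each HDAC6 list overlapped a list of another deacetylase more than the other HDAC6 list, by the index given below. HDAC1 and HDAC4a had a peak in 1 of 2 lists, and HDAC3 and HDAC11 had none in either.

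This site lay beside the middle CTCF site without overlapping it. The gap to the CTCF 500 peak was 297 bp for HDAC1 list 2, 735 bp for HDAC6 list 2, 818 bp for HDAC4a list 2 and 869 bp for HDAC6 list 1. For HDAC1 list 2, such a neighbour within 1 kb without overlap occurred at 31 of 692 peaks (4.48%) on the rest of X, whereas 53.9% of its peaks there overlapped a CTCF peak. For HDAC6 list 2 the shares were 4.06% and 64.6%, for HDAC4a list 2 they were 7.73% and 35.3%, and for HDAC6 list 1 they were 8.58% and 41.6%. To the CTCF 200 peak the gaps ran from 407 bp for HDAC1 list 2 to 979 bp for HDAC6 list 1. The comparison within 1 kb was not planned and was made with this site in view. Its 4 shares concern the same site, in lists that share an input, and are not separate results. The CTCF lists are from cultured cells and the HDAC lists from whole embryos.

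On the rest of X, these 4 lists seldom met without a further list. Of the 618 peaks of HDAC6 list 1 there, 176 (28.5%) were overlapped by HDAC1 list 2, HDAC4a list 2 and HDAC6 list 2 together. All but 3 of these 176 also carried a peak of at least 1 of the remaining 14 lists, which the site in the interval did not. The set of lists was read off this site and then looked for on X. Its low number there is therefore no test of whether the site is unusual.

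HDAC peaks were otherwise scarce. HDAC1 list 2 had 1 peak, against a mean of 2.79 per 90 kb over the rest of X. HDAC4a list 2 likewise had 1, where the rest of X averaged 3.71, and each HDAC6 list had 1, where the rest of X averaged 2.49 for list 1 and 2.88 for list 2. A peak was present in 79.8%, 83.8%, 76.1% and 81.4% of the other windows in these lists. Lists with no peak had means of 2.12 for HDAC1 list 1, 2.25 and 2.15 for the HDAC3 lists, 2.09 for HDAC4a list 1, and 1.09 and 1.17 for the HDAC11 lists. In these lists 73.3%, 71.3%, 72.9%, 76.9%, 60.7% and 59.1% of the other windows held a peak, in the same order. An empty window was thus found in 23.1% to 40.9% of the other windows in these lists, so a single empty list is a common finding on X.

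Taken over the 10 lists, the interval had 4 HDAC peaks, against a median of 22 in the other windows (quartiles 11 and 35), and 35 of the 247 windows (14.2%) had 4 or fewer. HDAC peaks covered 2.48% of the interval and 29.1% of the rest of X. HDAC3, whose peaks are the widest, covered 0 bp of the interval in both lists, and 14.1% and 14.8% of the rest of X. The HDAC3 lists were empty over 196291 bp and 196509 bp around the interval, and 22 of 556 and 19 of 531 gaps on X were as wide. Wide gaps take up more of X than their number shows, and 28.7% and 27.1% of the other windows were empty in these lists. The 10 lists share their only input library and so are not independent of each other.

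Windows rich in early Caudal peaks mostly held more HDAC peaks than the median of 22 over all other windows. The 19 other windows with 4 or more Caudal peaks at 0 to 4 h held 13 to 72 HDAC peaks, with a median of 37. Windows with 13, 17, 19 and 19 HDAC peaks lay below 22, among them the window with 8 Caudal peaks, the highest number. In each of the 19, 6 to 10 HDAC lists had a peak. The interval, with 4 HDAC peaks from 4 lists, lay below all 19 in both. Later Caudal peaks were absent from 1 of these 19 windows, and their median there was 7. This comparison was made after the counts had been seen, and windows of X are not replicates of a condition. When the windows were instead moved along X in steps of 10 kb, 167 of 2214 (7.54%) had 4 or more early Caudal peaks, and the lowest number of HDAC peaks among these was 5.

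**Figure D3:**
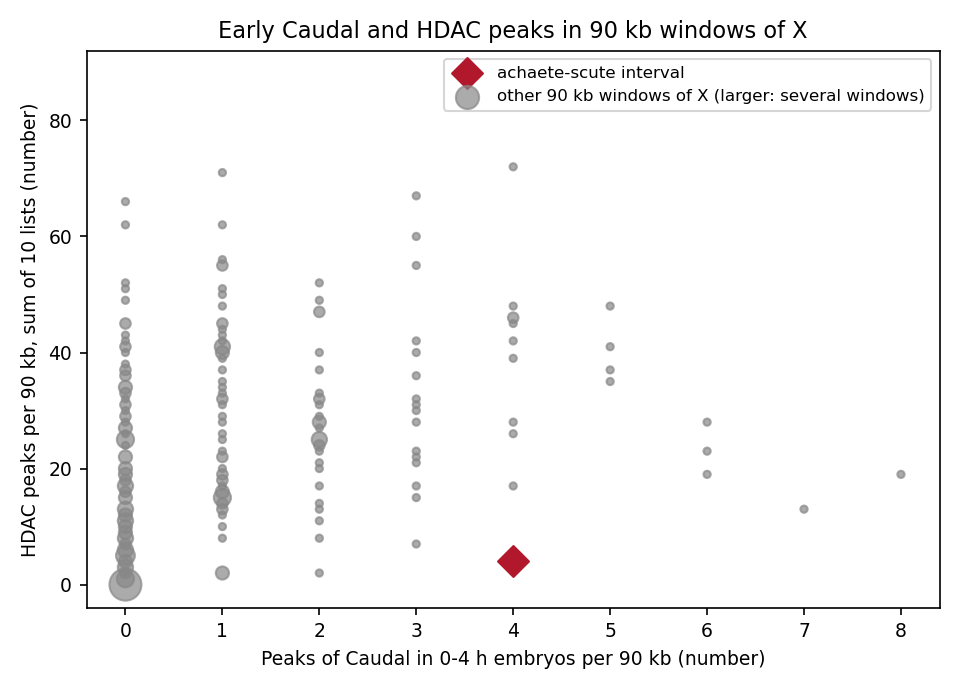
Number of peaks of Caudal in 0 to 4 h embryos (horizontal axis) and of HDAC peaks summed over 10 lists (vertical axis) in the achaete-scute interval (diamond) and in the 247 other 90 kb windows of X (circles, larger where several windows coincide). The interval, at 4 and 4, lies below the 19 other windows with 4 or more Caudal peaks, which have 13 to 72 HDAC peaks.

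Overlap between HDAC lists was measured with the Jaccard index, the bases in both lists over the bases in either, set to 0 where neither list had a peak. The mean was 0.170 over the 5 pairs with the same target and 0.0854 over the 40 pairs with different targets. Whether lists of 1 deacetylase coincided more than lists of unlike targets could not be tested here. With 6 of the 10 lists empty, HDAC6 was the only target whose pair could exceed 0, and 105 of the 945 divisions of the lists into pairs keep that pair together. The smallest p that the one-sided exact permutation test could give was therefore 0.111, above the threshold of 0.05, and its value of 0.333 says nothing about agreement within a target. The HDAC6 lists stood at 0.850. HDAC6 list 2 shared more with HDAC4a list 2, at 0.940, and HDAC4a list 2 and HDAC6 list 1 stood at 0.905. Over the whole of X the index was 0.276 for the HDAC6 lists, 0.257 for HDAC6 list 2 with HDAC4a list 2, and 0.531 for HDAC4a list 2 with HDAC6 list 1. For the other pairs of the same target it was 0.496 for HDAC1, 0.848 for HDAC3, 0.113 for HDAC4a and 0.0504 for HDAC11. HDAC6 list 2 stood at 0.532 with HDAC1 list 1 and at 0.393 with HDAC1 list 2 over X, above its value with HDAC6 list 1. Lists of 1 target thus differed widely in agreement over X. HDAC1 list 2 stood at 0.513 to 0.544 in the interval with the other lists bound there.

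EcR had no region in the interval in either prepupal list. The mean over the rest of X was 0.286 regions per 90 kb at 10 to 11 h and 0.238 at 30 to 33 h, and only 17.8% and 15.0% of the other windows held one, so an empty window was the usual finding. The nearest region on the right began at 1214312 at 10 to 11 h and at 1472287 at 30 to 33 h.

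Most bound segments of the interval came from a single protein. The 14 peaks merged into 8 segments, of which 7 came from 1 protein, and the HDAC site carried peaks of HDAC1, HDAC4a and HDAC6. On the rest of X, 987 of 2137 merged segments (46.2%) came from 1 protein. The difference was not tested and is not separate from the low number of HDAC peaks in the interval. Together the merged segments covered 17.3% of the interval, against 32.8% of the rest of X. No base lay under more than 4 lists, whereas 8.08% of the rest of X lay under 5 or more. The highest number there was 12, but over a far longer stretch than the interval. Bases under 2 or more lists made up 4.88% of the interval and 24.6% of the rest of X. These shares set 1 window against a mean over X, without the spread between windows. Of the 247 other windows, 46 (18.6%) had a peak in 7 or fewer lists, and 49 (19.8%) in 4 or fewer HDAC lists. Only 1 list, Caudal at 0 to 4 h, reached 2-fold of its mean over X, and over all lists and windows 15.7% did.

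**Figure D4:**
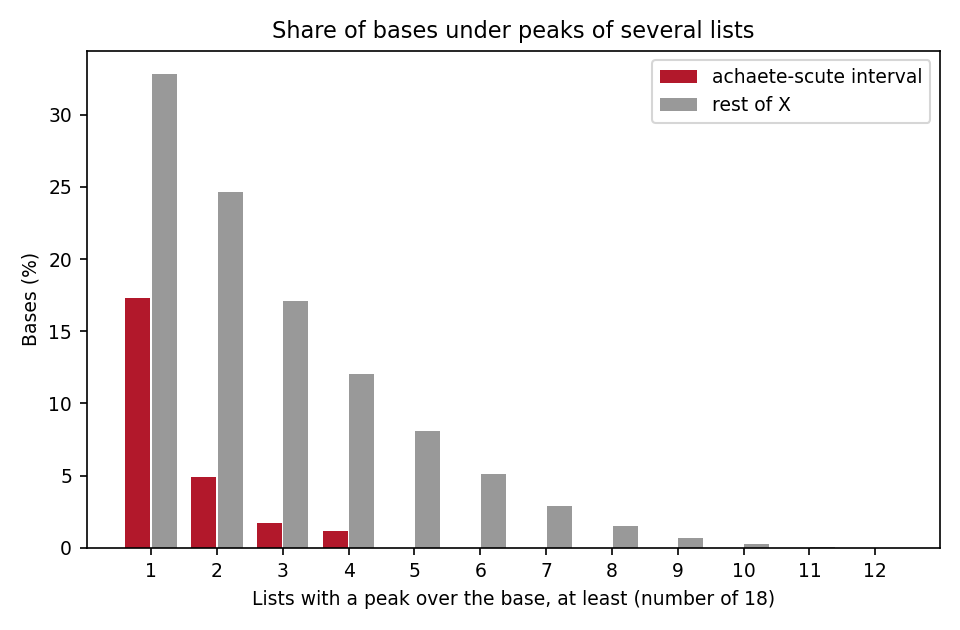
Share of bases in percent (vertical axis) under peaks of at least the given number of lists (horizontal axis), in the achaete-scute interval (left bar) and on the rest of X (right bar). The interval has 17.3% of its bases under 1 list or more against 32.8%, 4.88% under 2 or more against 24.6%, and none under 5 or more.

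No peak straddled an edge of the interval. The nearest peaks on the left were a CTCF site at 230495 to 231797, in both lists, 8203 bp from the edge. On the right, HDAC1 list 2 had a peak at 345223 to 346621, 15222 bp from the edge. The 90 kb on the right, 330000 to 420000, had 40 HDAC peaks with all 10 HDAC lists present, and the 90 kb on the left, 150000 to 240000, had 14 HDAC peaks from 5 lists. In the right flank the first peaks of HDAC1 list 2 (345223), HDAC3 list 2 (364891), HDAC4a list 1 (351471), HDAC6 list 2 (369415) and HDAC11 list 2 (365904) were the nearest to the edge of their targets. Summed over the 10 HDAC lists, peaks were thus fewer in the interval than in either flank. On the left this came from the 5 lists present there. HDAC4a list 2 and HDAC6 list 1 had 0 peaks in the left flank and 1 in the interval. Early Caudal peaks were more numerous in the interval, with 4 there and 1 in each flank. Since the 4 genes span more than the interval on release 6, a flank may hold part of the complex.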

How the data were processed

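Each ChIP sample had 1 peak list. Coordinates are on BDGP 5 per the submitters' processing notes, per the series record ChIP was compared with input, and per the titles the authors pooled 1 to 3 libraries per list. Which aligner and caller made the lists is not given in the sources used here. The authors deposited 15 lists with positions only. The other 3 (EcR, Caudal L3) also carry a score and, per the file headers, were cut from a density track at a count threshold (310.4, 169.4 and 133.8), with a maximum gap and minimum run of 100; this deposited score was used only to rank regions in alternatives. These lists had no region in the interval.

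Groups followed the labels. Peaks overlapping the interval by 1 bp were counted and set against the rest of X (extent 11412 to 22417339 over all lists) and against 247 windows of 90 kb on the same grid. Lists of 1 protein are not stated to come from separate collections, so differences between them may be technical. The only p-values came from the permutation of HDAC lists into pairs and measure no spread between collections. Python 3.11.15 and scipy 1.17.1 were used. Counting and the exact test were tested on simulated data with known answers. The threshold was 0.05. All 14 peaks are named, as the rule asked for every peak of lists with 5 or fewer. Genes and pathway members were not placed, for want of a release 5 annotation. The interval, lists and rules were chosen with earlier results of these data known.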

Additional observations from a re-analysis of the deposited data

Results flagged for a closer look

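Caudal had 4 peaks in the interval in embryos of 0 to 4 h and 0 in each of the later lists (embryos of 4 to 8 h, L3 larvae, adult females). It drew attention because the only early list lay above its mean over the rest of X and all later lists lay below theirs. Of the other windows, 7.69% held 4 or more peaks of the early list. Windows without a peak made up 25.9% at 4 to 8 h, 74.1% in L3 larvae and 26.7% in adult females. For L3 larvae, no peak is thus the usual outcome. With 1 list per stage the difference was not tested, and by the labels the antibody, the fly line and the tagged transgene changed with the stage.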

How the results depend on the processing

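With the midpoint or 50% of a peak in the interval, all 14 peaks and 7 lists stayed. The upper 50% of each list was taken by width, or by score where a list carries one. All 7 lists with a peak here were ranked by width, which is not a measure of signal. With it, 3 lists and 4 peaks were left (2 of Caudal at 0 to 4 h, 1 of each CTCF list). The bases under 2 or more lists fell to 1142 bp, against 4395 bp with all peaks. No HDAC peak was left, so the test of HDAC pairs could not be made. With the 59 widest or highest-scoring peaks per list on X, 1 list with 2 peaks was left, Caudal at 0 to 4 h. Wider intervals, chosen after seeing the data, gave 9 lists and 22 peaks with 30 kb added on each side, and 16 lists and 88 peaks with 90 kb. Caudal at 0 to 4 h was the 1 list at 2-fold or more, at 2.35-fold to 5.01-fold, under the other alternatives run for it, but with 90 kb added it stood at 1.96-fold, and the 1 list past 2-fold was Caudal in L3 larvae at 2.13-fold. The test of HDAC pairs could not pass 0.05 with all lists or without any 1 of them, so its values say nothing about stability. Its exact p was 0.619 when peaks of the shorter list were counted instead of bases, and 0.111 to 1 when each HDAC list was left out. It was 1, with the direction reversed, without HDAC6 list 1 or without HDAC6 list 2, since no other pair of the same target had shared bases, and 0.111 without HDAC4a list 2. No paired analysis was possible because the lists of different proteins share no numbered replicate. Lists hold only peaks past a threshold that is unknown for 15 of them, so an empty interval does not show that a protein was absent.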
